A study of Mus musculus with 6 samples.

Results

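Mesp1, Mesp2, Ripply1, Ripply2 and Epha4, a group of genes that act where the presomitic mesoderm (PSM) is cut into somites, were followed in RNA-sequencing of mouse tailbud. They were chosen by name, for their part in the determination front and in boundary formation, and all 5 have a row among the 35506 genes of the deposited table. The tissue came from 6 embryos at embryonic day 8.5 with 8 somites on the FVB/NJ background, 3 wild type (Smchd1+/+, called WT) and 3 homozygous for MommeD43 (Smchd1MommeD43/MommeD43). MommeD43 is a missense allele of Smchd1, a chromatin-silencing factor, that was made by ENU mutagenesis and is carried by every cell of the embryo. The labels give replicate 1 of each group as male and from the same mother, and replicates 2 and 3 as female and from different mothers. According to the study's methods, the tailbud was cut at a set distance below the last formed somite, chosen to leave out the next somite to form. Library totals recovered from the table ranged from 10957916 reads (MommeD43 replicate 1) to 47298348 reads (MommeD43 replicate 2).

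The PSM is laid down by the tailbud and is cut into somites at its anterior end. There, Notch signalling and the T-box factor Tbx6 switch on Mesp2, a basic helix-loop-helix factor that sets the place of the next boundary and the rostral side of the coming somite. Ripply1 and Ripply2 recruit Groucho (Tle) corepressors to T-box factors, and end the activity of Tbx6 and with it that of Mesp2. Epha4 encodes a receptor tyrosine kinase for ephrins and is activated by Mesp2 on the rostral side of the coming somite. It is also used in other tissues, among them the neural tube. Mesp1, a close relative and neighbour of Mesp2, is expressed in nascent mesoderm leaving the primitive streak, from which the heart arises, and again in the anterior PSM.

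To show the sequence next to each start, promoter windows of 250 bases before and 50 after the annotated start were read from RefSeq (build GRCm38.p6), and all 5 genes matched. The windows were searched on both strands for the letters TCACAC (a T-box core), TGGGAA (the core bound by RBPJ, the DNA-binding partner of Notch) and CANNTG (an E-box, the class of site that Mesp proteins bind). The T-box core was found in the windows of Mesp1, Ripply1 and Ripply2 and not in those of Mesp2 and Epha4, and 14.5% of 32851 mouse windows held it. The bases upstream of Mesp2, Ripply1 and Ripply2 are printed here because these genes answer to Tbx6 or act upon it, along with 30 bases of Mesp1 around its match. The stretches are chr7:79810477-79810726 (plus strand) for Mesp2, chrX:139782354-139782603 (minus strand) for Ripply1, chr9:87015287-87015536 (plus strand) for Ripply2 and chr7:79793568-79793597 (minus strand) for Mesp1. They read 5′ to 3′ on the strand of the gene, and capitals mark the T-box core.
Mesp2: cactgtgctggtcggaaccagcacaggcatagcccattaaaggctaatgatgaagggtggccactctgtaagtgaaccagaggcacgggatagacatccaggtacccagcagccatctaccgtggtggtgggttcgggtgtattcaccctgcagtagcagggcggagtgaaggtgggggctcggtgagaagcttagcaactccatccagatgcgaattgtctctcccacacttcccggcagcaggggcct
Ripply1: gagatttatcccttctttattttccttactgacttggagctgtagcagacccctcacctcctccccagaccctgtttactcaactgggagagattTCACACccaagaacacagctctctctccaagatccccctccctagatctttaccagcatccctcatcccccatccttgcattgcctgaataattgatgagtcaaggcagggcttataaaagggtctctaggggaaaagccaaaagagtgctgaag
Ripply2: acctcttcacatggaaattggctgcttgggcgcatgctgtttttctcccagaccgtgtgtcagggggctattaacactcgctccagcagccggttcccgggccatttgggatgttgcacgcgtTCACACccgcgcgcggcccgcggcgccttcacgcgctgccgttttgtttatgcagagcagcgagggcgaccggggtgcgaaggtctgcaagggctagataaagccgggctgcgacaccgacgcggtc
Mesp1: aaggggcccgctTCACACctagggctcagg

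In Ripply1 and Ripply2 the T-box core began 155 and 127 bases upstream of the start, respectively, and in both genes an E-box lay further upstream of it, at 170 and 148 bases. In Mesp1 it began at base 6 after the start. This start lies inside an exon of the longer GENCODE model of Mesp1. The RBPJ core was found only in the window of Epha4, 200 bases upstream, and 25.6% of all windows held it. An E-box was found in the windows of Mesp1, Mesp2, Ripply1 and Ripply2, and in 72.3% of all windows. A match of letters is a description of the window, and a window without a match leaves sites elsewhere in the gene unseen.

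**Figure D1:**
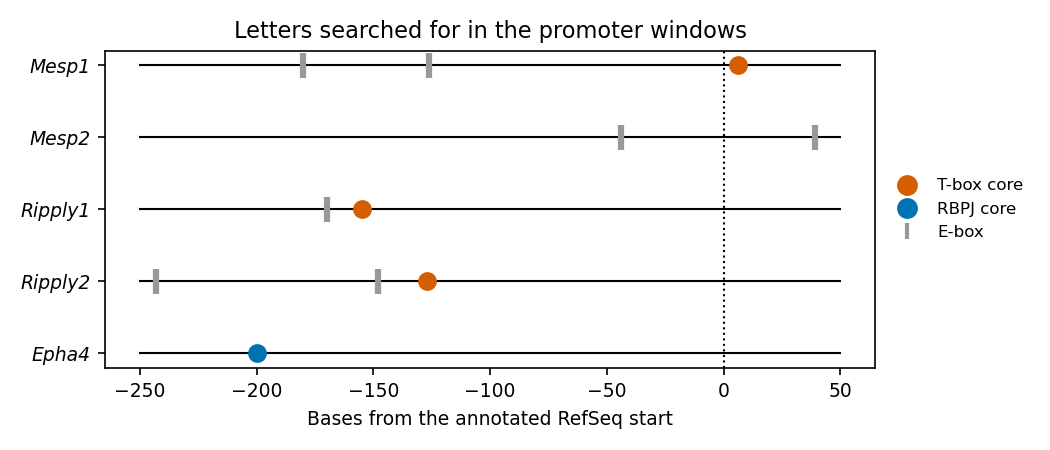
Positions of the letters searched for, in bases from the annotated RefSeq start (dotted line at 0), with 1 line per gene from 250 bases upstream to 50 downstream. The T-box core lies in the Ripply1 and Ripply2 windows 155 and 127 bases upstream and in Mesp1 just after the start, and Mesp2 shows E-boxes alone.

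The 5 genes were present at very different levels in the dissected tissue. Expression is given in RPKM, that is reads scaled to the length of the exons and to the size of the library, so that genes can be compared per length. Over the 6 libraries, the mean was 12.7 RPKM for Epha4, 1.30 for Mesp1, 0.480 for Ripply1, 0.0775 for Ripply2 and 0.0258 for Mesp2. Levels in RNA of a whole tissue cannot tell fewer cells that express a gene from less RNA in each of them.

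Neighbours in this order were compared within libraries by an exact sign-flip test, whose smallest two-sided p with 6 libraries is 0.03125. Epha4 was above Mesp1 in 6 of 6 libraries, by a mean of 3.92 on the log2 RPKM scale (exact p = 0.03125, adjusted over 4 pairs 0.0417). Mesp1 and Ripply1 did not differ beyond their spread, as the mean log2 difference was 0.91 and Mesp1 was the higher gene in 5 of 6 libraries (exact p = 0.281). Ripply1 was above Ripply2 in 6 of 6 libraries, with a mean log2 difference of 2.03 (exact p = 0.03125, adjusted 0.0417), although 3 Ripply2 values are those of libraries without a read.

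The order of Ripply2 and Mesp2 was not settled. In the deposited table a gene without a read takes the value of 0.9 read, which is a higher RPKM for a shorter gene, and on that scale the mean log2 difference was 1.67 (exact p = 0.03125, adjusted 0.0417). With log2(RPKM + 0.1), where a gene without a read has the same value in each library, it was 0.34 (exact p = 0.375), and Ripply2 had the higher RPKM in 3 libraries.

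**Figure D2:**
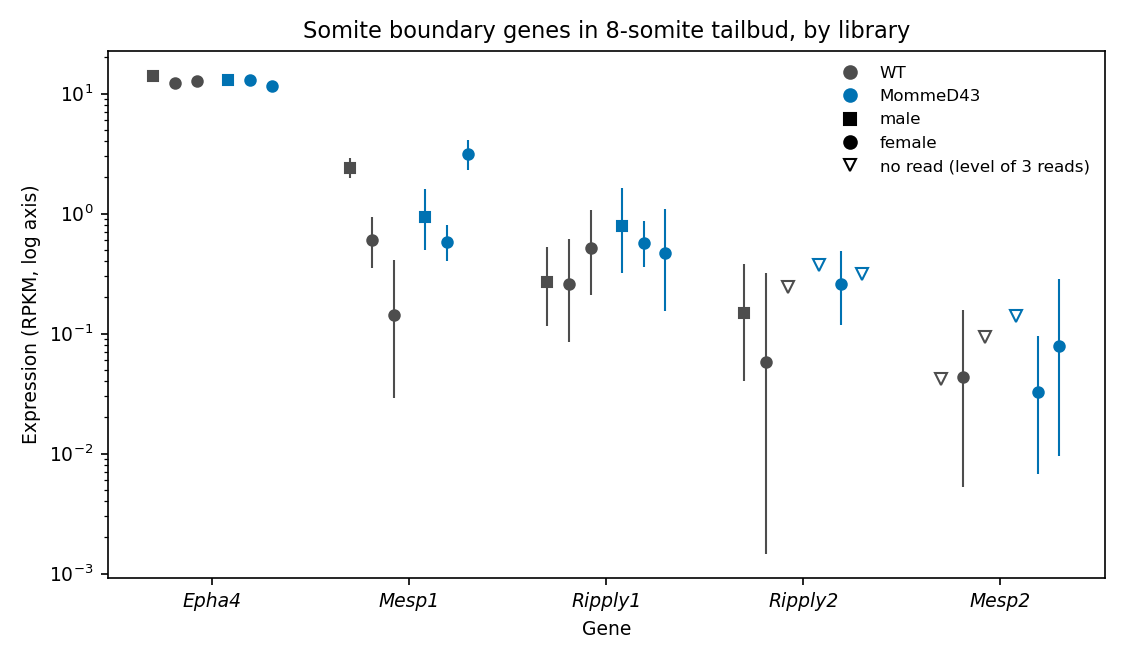
Expression of each gene in each library in RPKM (log axis), with WT in grey and MommeD43 in blue, males as squares and females as circles. Bars are exact 95% intervals from the reads, and open triangles stand at the level of 3 reads in libraries without a read. Epha4 is nearly level between 11.6 and 13.9 RPKM, Mesp1 spreads from 0.142 to 2.42 RPKM in WT and from 0.580 to 3.12 RPKM in MommeD43, and Mesp2 holds 0 to 3 reads.

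Mesp2 (ENSMUSG00000030543) is a plus-strand gene of chromosome 7 (79810727 to 79813439, build GRCm38). It held 0, 2 and 0 reads in WT replicates 1, 2 and 3, and 0, 3 and 2 reads in MommeD43 replicates 1, 2 and 3. In RPKM these are 0, 0.0436 and 0 in WT and 0, 0.0326 and 0.0786 in MommeD43 embryos. Mesp2 RNA was thus at the edge of detection in every library of either genotype, and no library held more than the floor of 3 reads. That floor corresponds to 0.0326 RPKM in the deepest and 0.141 RPKM in the shallowest library. The 7 reads of all libraries together give 0.0243 RPKM, with an exact 95% interval (Clopper-Pearson) of 0.00977 to 0.0501. Intervals from reads cover counting error only. No fold change is given, as both groups were at or under the floor, and a difference between genotypes was not detectable at this depth.

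Ripply2 (ENSMUSG00000047897, chromosome 9, 87015537 to 87019917, plus strand) was likewise close to the floor. It held 4, 1 and 0 reads in WT replicates 1 to 3, or 0.149, 0.0576 and 0 RPKM. In MommeD43 embryos it held 0, 9 and 0 reads, or 0, 0.259 and 0 RPKM. All 9 reads of the MommeD43 group thus came from replicate 2, the deepest library, and the groups overlapped. WT embryos averaged 0.0687 ± 0.0749 RPKM and MommeD43 embryos 0.0863 ± 0.149 RPKM (SD, n = 3 each, exact two-sided permutation p = 1.0). With 3 embryos against 3 this test cannot go below 0.1.

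Ripply1 (ENSMUSG00000072945, chromosome X, 139779549 to 139782353, minus strand) was detected in all 6 libraries. It held 8, 5 and 7 reads in WT replicates 1 to 3, or 0.269, 0.261 and 0.519 RPKM. In MommeD43 embryos it held 7, 22 and 5 reads, or 0.788, 0.574 and 0.471 RPKM. The upper values were mostly those of MommeD43 embryos, but WT replicate 3 lay above MommeD43 replicate 3, so that the groups overlapped. WT embryos averaged 0.350 ± 0.147 RPKM and MommeD43 embryos 0.611 ± 0.162 RPKM, a ratio of 1.75 (SD, n = 3 each, exact two-sided permutation p = 0.2). Taken as pooled reads, 34 in MommeD43 against 20 in WT, the ratio scaled for depth was 1.83, with a 95% interval of 1.02 to 3.36 that covers counting error only and not the spread between embryos. Fitted with limma without a filter on low values, the log2 fold change was 0.85 ± 0.38 (SE), with an adjusted p of 0.995. The log2 ratio of mean RPKM was 0.80, and 0.58 to 1.20 when single libraries were left out. As Ripply1 is X-linked, the females were also taken alone, which gave a log2 ratio of 0.42.

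Mesp1 (ENSMUSG00000030544) is a minus-strand gene of chromosome 7 (79792241 to 79793788), and 16938 bases separate it from Mesp2. Unlike Mesp2 it held reads in every library, 113, 18 and 3 reads in WT replicates 1 to 3 and 13, 35 and 52 reads in MommeD43 replicates 1 to 3. Its level differed from embryo to embryo within each genotype. In WT it was 2.42 RPKM in replicate 1 (exact 95% interval 1.99 to 2.91), 0.598 in replicate 2 (0.354 to 0.945) and 0.142 in replicate 3 (0.0292 to 0.414). In MommeD43 embryos it was 0.930 RPKM in replicate 1 (0.495 to 1.59), 0.580 in replicate 2 (0.404 to 0.807) and 3.12 in replicate 3 (2.33 to 4.09). The lowest and the next-to-highest embryo were both WT, and the highest was MommeD43.

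Within WT, replicate 1 stood above replicate 3 by a ratio of 17.1 (95% counting interval 5.70 to 84.2), and within MommeD43, replicate 3 stood above replicate 2 by a ratio of 5.37 (3.43 to 8.49). Neither interval comes near 1. The SD of log2 RPKM within groups was 1.70, where counting alone would give 0.426 and the median of the 14123 tested genes was 0.142. Only 67 tested genes (0.474%) had a larger SD. Among the 11076 tested genes with a mean of at least 1 RPKM there were 25 (0.226%). Of the gene lists used here, larger SDs were found in those of blood (5 of 6 tested genes) and yolk sac (2 of 7), and in none of the other 10 lists. Epha4, by contrast, had an SD of 0.0945, and 70.9% of tested genes had a larger one.

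**Figure D3:**
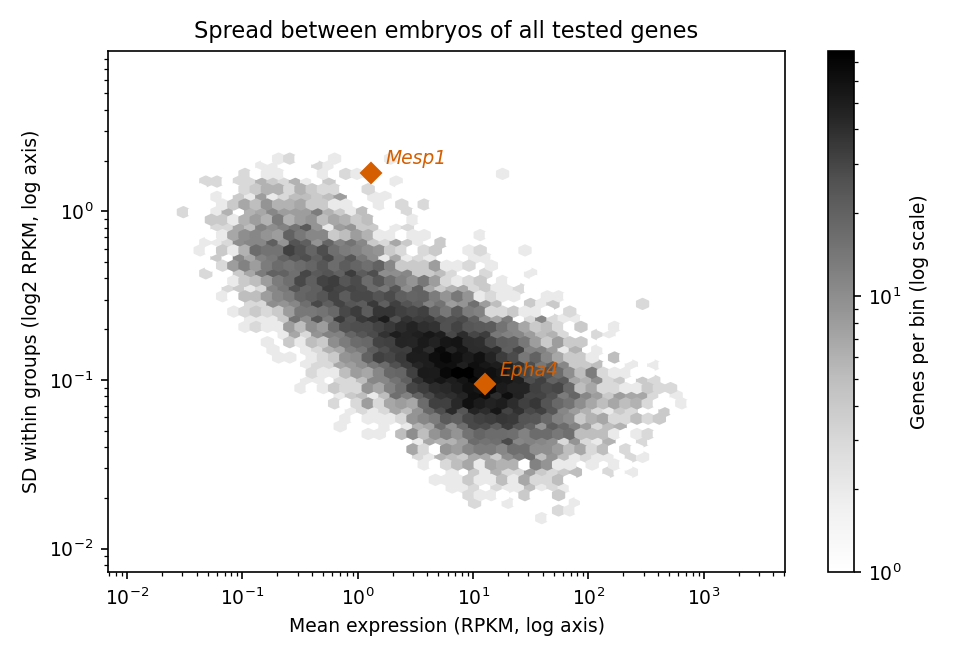
Each tested gene by its mean expression (RPKM, log axis) and the SD of log2 RPKM within groups (log axis), with darker bins holding more of the 14123 genes. Mesp1, at an SD of 1.70, stands above nearly all genes of its level, and Epha4, at 0.0945, lies among genes of its own level.

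Against this spread, no difference in Mesp1 between genotypes could be resolved. WT embryos averaged 1.05 ± 1.21 RPKM and MommeD43 embryos 1.54 ± 1.37 RPKM (SD, n = 3 each, exact two-sided permutation p = 0.6). The log2 fold change, MommeD43 against WT, was 1.01 ± 0.99 (SE) with a 95% interval of -1.26 to 3.28 and an adjusted p of 0.9995 (limma). Of the 5 genes, Mesp1 and Epha4 had enough reads for this test, which keeps genes that reach in at least 3 libraries the share of 10 reads in a library of median size. Neither passed an adjusted p of 0.05, as was so for each of the 14123 genes tested (0% called). An unadjusted p under 0.05 was reached by 341 genes (2.41%), with 1.44% higher and 0.97% lower in MommeD43, and again neither gene was among them. For 0 of the 5 genes were the groups free of overlap, against 7.07% of tested genes (3.53% higher and 3.54% lower in MommeD43).

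The Mesp1 value depended on single embryos. The log2 fold change was -0.02 without WT replicate 3, which held 3 reads, 0.32 without MommeD43 replicate 3, 1.53 without MommeD43 replicate 2, and 2.03 without WT replicate 1. With voom, which gives weight by reads, it was 0.18, and the reads pooled over a group gave a ratio of 0.804 with a counting interval of 0.614 to 1.05. None of these fits passed an adjusted p of 0.05.

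The sexes were also taken apart, since they fall together with the mothers in this design. In females, MommeD43 against WT, the log2 fold change of Mesp1 was 2.21 ± 0.90 (SE, adjusted p = 0.565, limma, where 0.156% of tested genes passed). In the male pair it was -1.38. The difference between them, -3.59 ± 1.56 (SE), had an adjusted p of 0.469 (limma, where 0.248% of tested genes passed). There was 1 male per genotype, so sex, mother and single embryo cannot be told apart.

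Epha4 (ENSMUSG00000026235, chromosome 1, 77367185 to 77515088, minus strand) was abundant and nearly level. It held 4110, 2325 and 1695 reads in WT replicates 1 to 3, or 13.9, 12.2 and 12.7 RPKM. In MommeD43 embryos it held 1138, 4904 and 1218 reads, or 12.9, 12.9 and 11.6 RPKM. The highest value was that of a WT and the lowest that of a MommeD43 embryo, and the other 4 lay between 12.2 and 12.9 RPKM. WT embryos averaged 12.9 ± 0.891 RPKM and MommeD43 embryos 12.4 ± 0.768 RPKM (SD, n = 3 each). This is a log2 fold change of -0.06 ± 0.08 (SE) with an adjusted p of 0.9995 by limma, and its 95% interval of -0.24 to 0.12 bounds the change that these libraries leave room for. It was -0.03 in females and -0.11 in the male pair, a difference of -0.08 (adjusted p = 0.850, limma).

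Ratios between the genes were compared next, as a way to set aside anything that scales a whole library. The 3 genes with a read in every library were used. For Mesp1 to Epha4 the log2 ratio was -4.45 ± 1.98 in WT against -3.38 ± 1.34 in MommeD43, which differ by 1.07 (SD, n = 3 each, exact permutation p = 0.5, adjusted over 3 ratios 0.75). The log2 ratio of Ripply1 to Epha4 was -5.28 ± 0.589 and -4.38 ± 0.307, a difference of 0.90 (exact permutation p = 0.2, adjusted 0.6). That of Mesp1 to Ripply1 was 0.83 ± 2.54 and 0.99 ± 1.504, a difference of 0.17 (exact permutation p = 1, adjusted 1). On this scale the groups overlapped for each ratio, for Ripply1 to Epha4 by the narrow margin of -4.61 in WT replicate 3 and -4.62 in MommeD43 replicate 3. With log2(RPKM + 0.1) that ratio differed by 0.74 and the groups did not overlap (exact permutation p = 0.1, the smallest that 3 against 3 allows, so that 0.05 could not be passed).

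The genes were also set against each other over the 6 libraries. Mesp1 and Ripply1 had a Pearson's r of -0.24 (exact permutation p = 0.640, adjusted over 10 pairs 0.931) and a Spearman's rho of -0.26 (exact permutation p = 0.658, adjusted 0.940), with an r of -0.33 once the 2 libraries farthest from the median of Mesp1 were left out. For Mesp1 and Epha4 the r was -0.03 (exact permutation p = 0.964, adjusted 0.964) and the rho -0.03 (exact permutation p = 1, adjusted 1), but the r was 0.91 without those 2 libraries. Ripply1 and Epha4 had an r of -0.15 (exact permutation p = 0.807, adjusted 0.964) and a rho of 0.31 (exact permutation p = 0.564, adjusted 0.940), with an r of 0.69 without the 2 farthest libraries. No pair passed 0.05 after adjustment. The pair with the smallest p, Mesp2 and Epha4 (r = -0.94, exact permutation p = 0.025, adjusted 0.25; rho = -0.77, exact permutation p = 0.103, adjusted 0.875), rests on Mesp2 values of 0 to 3 reads, and its r was -0.34 without the 2 farthest libraries.

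Genes whose pattern over the 6 libraries was most like that of Mesp1 were looked up among 11075 tested genes with a mean of at least 1 RPKM. The highest Pearson's r was that of Adsl (0.996), Psmc3 (0.993) and Zcrb1 (0.992), and the lowest that of Pde7a (-0.996). These genes changed little, Adsl from 20.6 to 24.4 RPKM, where Mesp1 spanned a ratio of 22.0 (95% counting interval 7.13 to 110). For Epha4 the highest were Gm44777 (0.997), Ppp4r1 (0.980) and Prrt2 (0.980), and the lowest was Cog2 (-0.990). With so many genes and 6 libraries, values near 1 are found for many patterns, and they are given as a description.

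The search was repeated among the 64 genes that themselves varied widely, with an SD of at least 1 on the log2 scale and a mean of at least 1 RPKM, a choice made after the values were seen. The highest r with Mesp1 was that of Gm41231 (0.903, rho 0.829, on 2 to 33 reads), Gfra3 (0.872, rho 0.886) and Fst (0.826, rho 0.771). Fst, which encodes the activin antagonist follistatin, was at 24.4, 1.76 and 1.82 RPKM in WT replicates 1 to 3 and at 4.77, 2.49 and 8.42 RPKM in MommeD43 replicates 1 to 3. Gfra3, a receptor of the GDNF family, was at 8.51, 2.14 and 1.84 RPKM in WT and at 4.30, 1.82 and 6.20 RPKM in MommeD43 embryos. As with Mesp1, WT replicate 1 and MommeD43 replicate 3 were the upper embryos for both genes, with MommeD43 replicate 1 next. The lowest r was that of Hba-a1 (-0.875) and Rmrp (-0.787), followed by Hbb-y (-0.743), an embryonic globin.

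RNA of other tissues also differed between these dissections, and its part in the Mesp1 values was not tested. The 6 primitive blood markers summed to 5.47, 470 and 174 RPKM in WT replicates 1 to 3 and to 13.5, 209 and 14.8 RPKM in MommeD43 replicates 1 to 3. The 3 libraries with the lowest blood sums were the 3 with the highest Mesp1. The 7 yolk sac endoderm markers summed to 138, 242 and 274 RPKM in WT and to 431, 50.5 and 35.8 RPKM in MommeD43 embryos, an order that is not that of Mesp1. Of blood and yolk sac markers, 6 of 6 and 7 of 7 were tested, 0 passed, and the median log2 fold changes were -1.02 and -1.28, against 0.00 over all tested genes. The blood median changed sign with the choice of library or test, as it was 0.24 without WT replicate 2 and 0.13 with voom, against -2.83 without WT replicate 1, -2.08 without MommeD43 replicate 2, -0.37 without WT replicate 3, -0.40 without MommeD43 replicate 1 and -0.47 without MommeD43 replicate 3. The yolk sac median stayed below 0 in these fits, and was -2.34 without MommeD43 replicate 1, -0.76 without MommeD43 replicate 2 and -0.48 without MommeD43 replicate 3.

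**Figure D4:**
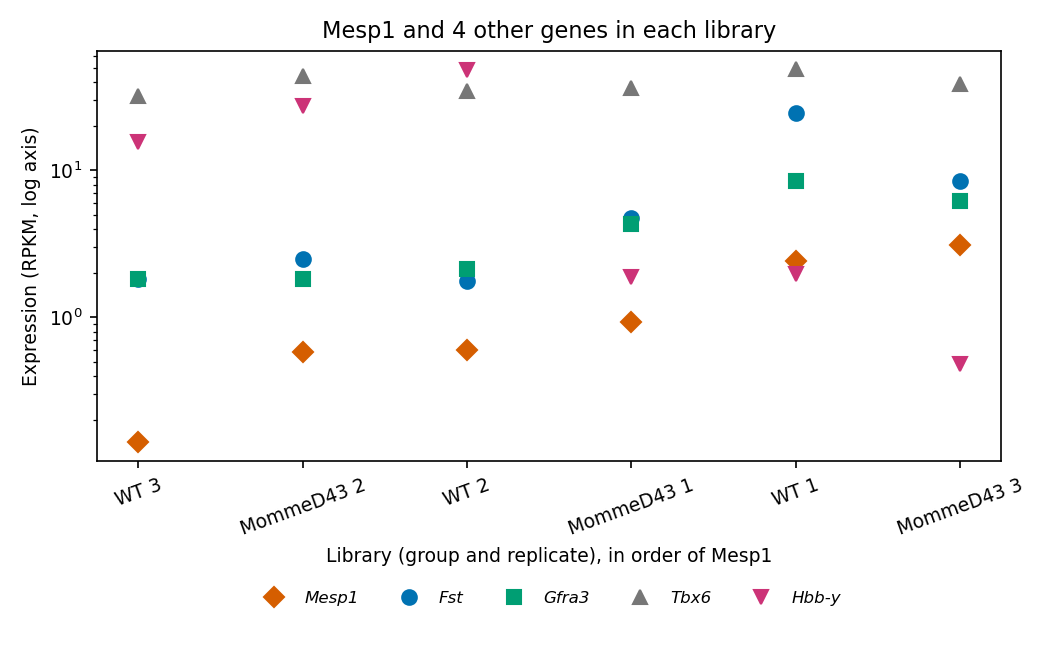
RPKM (log axis) of Mesp1, Fst, Gfra3, Tbx6 and the globin Hbb-y in each library, with the libraries in order of Mesp1. Mesp1 goes from 0.142 to 3.12 RPKM and Fst and Gfra3 are highest in the last pair of libraries, Tbx6 stays between 32.2 and 48.6 RPKM, and Hbb-y is lowest in the library with the most Mesp1.

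Early streak and cardiac mesoderm, where Mesp1 is also expressed, were examined with 8 markers. Mixl1, a homeobox gene of the primitive streak, was at 21.2, 10.6 and 7.66 RPKM in WT replicates 1 to 3 and at 8.39, 12.7 and 12.6 RPKM in MommeD43 replicates 1 to 3. Within WT it was thus highest in replicate 1 and lowest in replicate 3, as Mesp1 was. Within MommeD43 it was highest in replicate 2, where Mesp1 was lowest. Myl7 was also highest in replicate 1 and lowest in replicate 3 within WT, whereas Gata4, Hand1 and Tnnt2 were not highest in replicate 1. The sum of the 12 posterior tailbud and PSM markers also fell from WT replicate 1 to 3, at 933, 693 and 682 RPKM. In MommeD43 replicates 1 to 3 that sum was 688, 812 and 822 RPKM. Not every marker of that list followed the order, as Cyp26a1 was lowest in replicate 1 within WT. The part of Mixl1 or of these other markers in the Mesp1 values was not tested. Hand1, of lateral and cardiac mesoderm, was at 46.8 to 67.4 RPKM, whereas Eomes held 40 reads in all, Nkx2-5 held 3 and Tbx5 held 34. The 8 early streak and cardiac markers summed to 63.4 to 83.6 RPKM in WT and to 62.6 to 84.6 RPKM in MommeD43 embryos. Most of each sum was Hand1. Of the 5 markers tested, 0 passed, and the median log2 fold change was -0.12. The extremes were Tnnt2 (0.64 ± 0.56, SE) and Gata4 (-0.29 ± 0.25).

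The listed regulators of Mesp2, which include repressors, were each above Mesp2 in mean level, from 0.859 RPKM for Psen2 to 98.6 RPKM for Msgn1. Tbx6 was at 39.1 RPKM on average (range 32.2 to 48.6) and Msgn1, a basic helix-loop-helix factor of the posterior PSM, at 98.6 RPKM (76.2 to 123). The Notch ligand Dll1 was at 31.7 RPKM and the receptor Notch1 at 7.42, with 2.63 RPKM for Rbpj. The clock genes Hes7 and Lfng, a repressor and a modifier of Notch, were at 24.98 and 12.8 RPKM, and the forkhead genes Foxc1 and Foxc2 at 2.22 and 1.52 RPKM. All 14 genes of this list had a read in every library, and the list summed to 232 to 312 RPKM in WT and 264 to 298 RPKM in MommeD43 embryos.

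None of the 14 inputs passed an adjusted p of 0.05. Their median log2 fold change was 0.06, against 0.00 over all tested genes, with 9 above 0 and 5 below. Hes7 had the highest value, 20.8 ± 3.53 RPKM in WT against 29.2 ± 7.42 RPKM in MommeD43 (SD, n = 3 each), with a log2 fold change of 0.47 ± 0.20 (SE), an unadjusted p of 0.0446 and an adjusted p of 0.9995 (limma). Its groups overlapped, as WT replicate 1 at 23.4 RPKM lay above MommeD43 replicate 2 at 20.96. Psen2, a component of the gamma-secretase that cleaves Notch, had the lowest, -0.28 ± 0.19, at 0.942 ± 0.0978 RPKM in WT against 0.776 ± 0.0520 RPKM in MommeD43. Its unadjusted p was 0.173 and its adjusted p 0.9995 (limma). The groups of Psen2 did not overlap, as was so for 7.07% of tested genes. Those lower in MommeD43 made up 3.54% of all tested genes. Tbx6 itself was at 38.4 ± 8.92 and 39.7 ± 3.91 RPKM, with a log2 fold change of 0.07 ± 0.15.

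The partners of the Ripply proteins were also present. The Groucho genes Tle3 and Tle4 were at 18.6 and 17.7 RPKM on average, with 4.86 for Tle1 and 0.329 for Tle2. Of the 7 listed partners 6 were tested and 0 passed, the median log2 fold change was 0.01, and 3 were above 0 and 3 below. Tbx18, a T-box gene of the rostral somite, held 19 reads over all libraries and was not tested.

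Genes that mark the polarity and boundary of formed somites fell into sets of unlike level. Uncx and Cer1, of the caudal and rostral side respectively, were without a read in all 6 libraries, and Tbx18 and the protocadherin Pcdh8 held 19 and 28 reads. Snai1, Nrarp, Dll1, Cdh2, Fn1 and Itga5, which the posterior PSM also expresses, averaged 18.5 to 149.6 RPKM. These 6 genes were tested and 0 passed, with a median log2 fold change of 0.08. The extremes were Dll1 (0.22 ± 0.11, SE) and Cdh2 (-0.03 ± 0.08).

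Markers of formed somites were low. Of 11 listed, Uncx held 0 reads, Pax1 held 1, Meox2 held 14, Tbx18 held 19 and Myf5 held 42, and none of these was tested. Meox1 and Tcf15 were at 1.49 and 0.562 RPKM, and Aldh1a2, which makes retinoic acid, was the highest at 7.75 RPKM. The list summed to 10.99 to 12.2 RPKM in WT and to 10.7 to 14.9 RPKM in MommeD43 embryos. Of the 6 tested markers 0 passed, with a median log2 fold change of 0.12, between Pax9 (0.57 ± 0.39, SE) and Pax3 (-0.27 ± 0.26). The posterior tailbud and PSM markers, by contrast, summed to 682 to 933 RPKM in WT and to 688 to 822 RPKM in MommeD43 embryos. All 12 of these were tested, 0 passed, and the median log2 fold change was 0.01, between Hes7 and Wnt3a (-0.09 ± 0.26, SE). The tissue thus held the RNAs of the listed posterior tailbud and PSM markers, and those of formed somites at low levels or not at all.

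**Figure D5:**
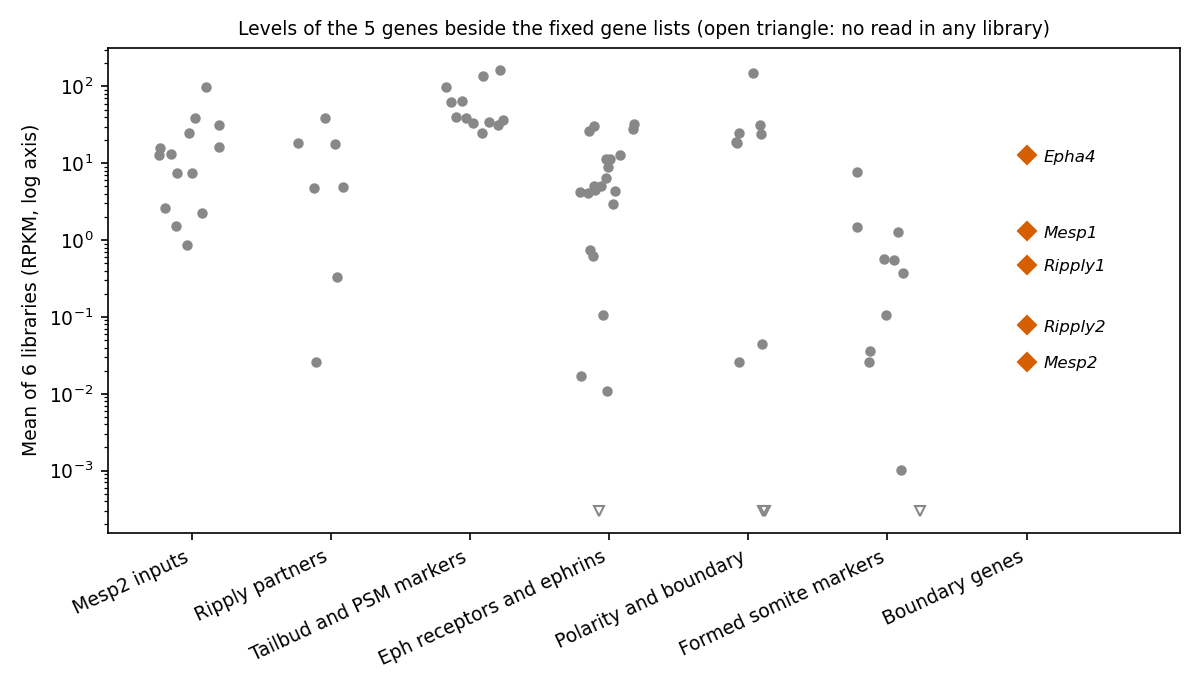
Mean of the 6 libraries in RPKM (log axis) for each gene of 6 lists (grey) and for the 5 boundary genes (orange), with open triangles for genes without a read in any library; Epha4 is shown in its list too. Tailbud and PSM markers lie between 24.98 and 165 RPKM, whereas Mesp2 and Ripply2 lie at 0.0258 and 0.0775 RPKM.

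Epha4 was compared with its family. Of 22 Eph receptors and ephrins 19 were tested, and Epha3, Epha6 and Epha10, with 23, 0 and 12 reads in all, were not. The receptor Ephb4 was at 32.2 RPKM on average and the ligands Efna1 and Efna4 at 30.9 and 26.6 RPKM, above Epha4 at 12.7. None of the 19 passed an adjusted p of 0.05, the median log2 fold change was 0.02, and 10 were above 0 and 9 below. Efnb2, the transmembrane ligand that pairs with Epha4 at the somite boundary, averaged 3.90 ± 0.494 RPKM in WT against 4.67 ± 0.240 RPKM in MommeD43 (SD, n = 3 each), and its groups overlapped. Its log2 fold change was 0.27 ± 0.12 (SE, unadjusted p = 0.0480, adjusted p = 0.9995, limma).

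Efna1, a membrane-anchored ligand of EphA receptors, was at 29.7, 26.5 and 28.5 RPKM in WT replicates 1 to 3 and at 32.9, 31.9 and 36.0 RPKM in MommeD43 replicates 1 to 3. Its groups did not overlap, as was so for 7.07% of tested genes. The log2 fold change was 0.25 ± 0.07 (SE, unadjusted p = 0.00597, adjusted p = 0.9995, limma). For Epha7, named after its values were seen, the groups did not overlap either, and it was lower in MommeD43, at 0.679 ± 0.0385 RPKM against 0.798 ± 0.0393 RPKM in WT (SD, n = 3 each). The lowest value of the family was that of Epha8, -1.08 ± 0.74 (SE), a gene with 85 reads in all.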

How the data were processed

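Polyadenylated RNA of dissected tailbud was sequenced from 6 mouse embryos, and groups, replicates and sexes were taken from the labels. Tissue field and titles name tailbud and were followed, although the source field says neural stem cells. Replicates are separate embryos. The authors trimmed reads with Trim Galore 0.4.4, mapped them with HISAT2 2.0.5 to GRCm38.p6 and quantified them with SeqMonk, and deposited log2 RPKM per gene. The kit was stranded per the labels, and whether strand was used in counting is not given in the sources used here. The exons of none of the 5 genes overlap an exon of another gene, and overlap with introns was not examined. The group mean columns were not used.

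Whole reads were recovered as RPKM times exon length (GENCODE M21) times library total, and 98.6% of 106286 values above the undetected level were whole within 0.02. Genes on autosomes and X with at least 3 libraries at the share of 10 reads in a median library, and 15 reads in all, entered a two-sided limma fit (limma 3.58.1 in R 4.3.3, trended variance) on the deposited log2 RPKM with no pseudocount, and p-values were adjusted over all 14123 of them (Benjamini-Hochberg). Mesp2, Ripply1 and Ripply2 were under this filter and were compared by exact permutation of RPKM. On simulated data over 14123 genes, with 200 changed 2-fold in MommeD43 against WT, 90.5% of changed genes were recovered with 14 calls among the others. The simulation gave every gene the same spread between embryos, set from the median SD of 0.142, and no differences in tissue between dissections. Its share recovered therefore does not hold for genes of wider spread, such as Mesp1 with an SD of 1.70.

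The 5 genes, the 12 gene lists (108 genes) and the tests were chosen with earlier results of these data known. Named genes were the 5 genes, the highest and lowest tested gene of each list, list genes with an unadjusted p under 0.05, and the 3 genes most and 1 least like Mesp1 and Epha4, of which 1 list gene is not reported here; further list genes are named for their levels and were chosen after their values were seen. Alternatives comprised other scalings, pseudocounts, filters, covariates, a replicate block, voom, females alone and each replicate left out; voom without a filter and the log2 ratio of mean RPKM for Ripply1 and Ripply2 were added after seeing the data. Protein sequences were not analysed here. Python 3.11.15, numpy 2.4.6, pandas 2.3.3 and scipy 1.17.1 were used for the remaining steps.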

Additional observations from a re-analysis of the deposited data

Results flagged for a closer look

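Of 40 named genes tested for a difference in genotype effect between the sexes, 1 passed an adjusted p of 0.05. Over all 14123 tested genes, 35 passed (0.248%). Ttr, a yolk sac endoderm marker used to follow other tissue in the dissections, had a log2 fold change of -2.37 in females and 1.90 in the male pair, a difference of 4.26 (adjusted p = 0.000124, limma). With 1 male per genotype, this difference cannot be told apart from one between single embryos or mothers.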

How the results depend on the processing

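Of 392 recomputed values, 260 were counts of genes passing, of which 258 were 0, as in the reported fit, and say little of stability. Of the other 132, 106 kept their direction and their side of the threshold, which most had not passed. MommeD43 against WT, 0 genes passed an adjusted p of 0.05 under each alternative except females alone (2 against 2), where 11 passed, 4 of them yolk sac markers; the cause was not tested. Where the sexes were fitted apart, 22 genes passed in females and 35 for the difference between the sexes. With single replicates left out, the log2 fold change ranged from -0.016 to 2.03 for Mesp1, the log2 ratio of mean RPKM from -0.26 to 1.58 for Ripply2 (both negative without WT replicate 3), and the difference in the log2 ratio of Mesp1 to Ripply1 from -1.19 to 1.33. In the same way, r ranged from -0.41 to 0.030 for Mesp1 and Ripply1, from -0.64 to 0.68 for Mesp1 and Epha4, and from -0.41 to 0.50 for Ripply1 and Epha4. The log2 difference in level ranged from 3.41 to 4.33 for Epha4 over Mesp1, from 1.87 to 2.26 for Ripply1 over Ripply2 and from 1.29 to 1.95 for Ripply2 over Mesp2, and with 5 libraries the smallest p is 0.0625, so that none could pass. With log2(RPKM + 0.1), Ripply2 over Mesp2 was 0.34.

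The study describes these embryos as somite-paired, with 3 pairs, and replicate numbers were examined as a possible pairing. Deviations from group means correlated at 0.02, 0.18 and -0.15 for numbers 1, 2 and 3. With 3 embryos a group, these values cannot settle whether the numbers mark pairs. Embryos of the same number share their sex, and those of replicate 1 also their mother. With the replicate block 0 genes passed, with 319 at an unadjusted p under 0.05 (341 without it), and Mesp1 had an adjusted p of 0.999. At that level voom gave 185 genes higher and 253 lower, against 204 and 137. Mesp2 is given no fold, as both groups were at or under the floor and the fits without a filter depend there on the value set for a gene without a read. Ripply2 has no value without MommeD43 replicate 2, and Mesp1 has none under the stricter filter. Depth limits Mesp2, Ripply1 and Ripply2, which held 7, 54 and 14 reads in all.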

Other observations

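Neighbouring tissues of the tailbud were described by 3 further marker lists, and 0 of their tested genes passed an adjusted p of 0.05 (limma). Of 8 neural tube markers 4 were tested, with a median log2 fold change of 0.08, between Sox1 (0.18 ± 0.68, SE) and Pax6 (-0.30 ± 0.32), and the list summed to 7.83 to 10.6 RPKM in WT and 8.85 to 10.8 RPKM in MommeD43 embryos. The 6 hindgut endoderm markers summed to 114.04 to 114.44 RPKM in WT and 103 to 122 RPKM in MommeD43 embryos. Most of each sum was Cldn6, and Trh ranged from 3.98 to 10.2 RPKM within WT. The median log2 fold change of the list was 0.07, between Trh (0.15 ± 0.39, SE) and Foxa2 (-0.16 ± 0.19). The 6 endothelial markers had a median of 0.42, with 5 above 0, but it was 0.06 with 3 above 0 without WT replicate 1, and -0.04 with 3 above 0 in females alone. Among these Tie1, a receptor kinase of endothelium, averaged 2.56 ± 0.455 RPKM in WT against 3.60 ± 0.753 RPKM in MommeD43 (SD, n = 3 each), a log2 fold change of 0.48 ± 0.19 (SE, unadjusted p = 0.0354, adjusted p = 0.9995, limma). Its groups overlapped. Emcn was the highest of the list, at 0.64 ± 0.72, and Kdr the lowest, at -0.14 ± 0.19. The lowest gene of the blood list was Hbb-y (-1.97 ± 1.53), and the extremes of the yolk sac list were Ttr (-0.94 ± 0.77) and Apoa1 (-1.85 ± 1.12).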
